A study of Sus scrofa with 10 samples.

Results

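Assembled loci without an annotation that lie opposite to a protein-coding locus were described in the ovaries of 10 gilts. A locus was taken when the table gave it no transcript type, when its strand was + or -, when its span shared at least 1 base with a protein-coding locus on the other strand, and when it touched no protein-coding locus on its own strand. A total of 7157 of the 43499 loci of the table, and of its 20536 unannotated loci, met this rule and are called antisense loci. Each was paired with the coding locus it overlapped most. The rule used positions and strands and no measured value.

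Ovarian RNA was sequenced from 5 gilts of the control group and from 5 treated with rpFSH, and each pig gave 1 library. All pigs had been fed altrenogest, a progestin that holds back oestrus, in a daily dose of 20 mg, given over 18 days starting at an age of 210 days. At 2 days after the last altrenogest, the rpFSH treatment group was given 1000 IU of recombinant pig follicle stimulating hormone (rpFSH), made in CHO cells, and the control group was given saline. The labels write the agent as fpFSH and call the controls untreated. The ovaries were taken at an age of 234 days and their surface follicles were removed, so the RNA is that of the remaining tissue. The aim of the study was to find genes and lncRNAs that respond to rpFSH in the ovary.

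An antisense transcript is read from the DNA strand opposite to a gene. Some antisense transcripts start at or near the promoter of the gene and run away from it, others start inside the gene, and others meet it tail to tail at its 3' end. Known examples act on the gene they face by changing its chromatin, by blocking the polymerase or by pairing with its RNA, and many others have no known function. Whether a read counts as antisense depends on the strand information of the library. The methods describe a dUTP protocol, which keeps the strand, whereas how strand was used in counting was not stated. If the counting did not use strand, reads from an antisense locus and from the coding locus around it cannot be told apart, and this limit applies to each pair below.

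Primers for qRT-PCR were designed to 2 of the antisense loci. They are shown because they mark the sequence by which the study measured these loci outside the sequencing. No strand-specific step was described for this qRT-PCR, so RNA of the coding strand over the same bases may have been read too. MSTRG.16871 faces NPSR1 at chr18:39004774-39026880 on the + strand, and MSTRG.34178 faces TMEM135 at chr9:20894538-20911448 on the - strand (Sscrofa11.1, the build named in the labels). Each primer is written 5' to 3'.
MSTRG.16871 forward: aaggccagagcattagctcc
MSTRG.16871 reverse: cctgcatgaagaaggcttgc
MSTRG.34178 forward: taagtggccagactgcacaa
MSTRG.34178 reverse: ggagttcggtgaggagaacc

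Total counts were between 64873797 and 75114003 per pig, and 3 counts in a library were taken as the floor. The libraries differed in the summed levels of cell type markers. The summed FPKM (fragments per kilobase of transcript, scaled to sequencing depth) of 7 theca and luteal cell markers was 2729 in control 2, against at most 1447 in treated pigs. The summed level of 11 markers of ciliated oviduct-type epithelium was between 12.2 and 134 FPKM in controls, with a median of 17.0, 68.4 in control 2 and the highest value in control 5. It was between 7.06 and 8.67 FPKM in treated pigs, so every control lay above every treated pig, and 9 of these 11 markers were called lower in treated pigs. The sum of 7 smooth muscle markers was 2214 FPKM in control 5 and 72.5 FPKM in control 2, against 184 to 512 in treated pigs. The B cell marker MS4A1 had a mean below 0.05 FPKM. The part of these differences in the results below was not tested, except where values without control 2 and control 5 are given.

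Most antisense loci lay within the body of a long gene. Of the 7157 loci, 6635 (92.7%) lay wholly inside the span of the coding locus, 307 overlapped its 5' end head to head, 176 overlapped its 3' end tail to tail, and 39 spanned it from end to end. The median span was 6681 bases, with quartiles of 2748 and 16721, and 6302 loci were assembled as 1 transcript. The FPKM and the counts together give the assembled length of a locus, and a locus whose length was at least 90% of its span was called unspliced. By this measure 4205 loci were unspliced and 2683 were spliced, and 269 had too few counts to tell. The share of spliced loci among those that could be told was 34.7% inside coding loci and 96.3% in head-to-head pairs. Starts inside coding loci were spread along the gene, with 18.2% in the first 20% of the coding locus from its 5' end and 24.0%, 22.9%, 19.5% and 15.4% in the following stretches of the same length. In the head-to-head pairs the median distance between the start of the coding locus and that of the antisense locus was 24196 bases, and 19 of the 307 were within 1000 bases.

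**Figure D1:**
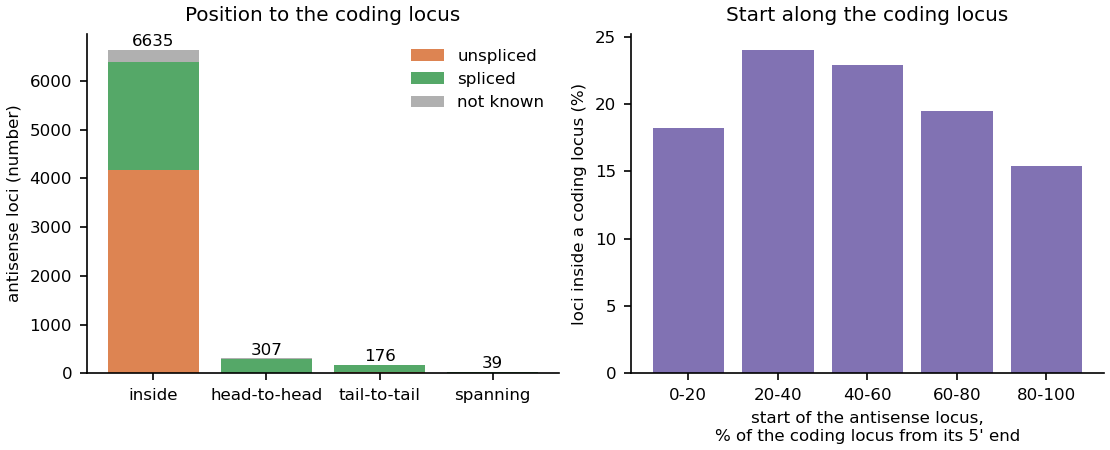
Left, the number of antisense loci by position to the coding locus, with unspliced, spliced and unknown form stacked in colour; right, the percent of loci inside a coding locus by the place of their start, from the 5' end of the coding locus. Of the loci, 6635 lie inside, and no stretch of 20% of the coding locus holds more than 24.0% of their starts.

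The antisense loci faced 3024 coding loci, 15.1% of the 19972 in the table, and were unevenly spread over them. A single antisense locus was found at 1510 coding loci, whereas 365 coding loci had 5 or more and together held 2611. AUTS2, a gene of neural development, had the largest number with 32 loci. It was followed by DAB1, an adaptor of reelin signalling, with 24, and by CTNNA2, which encodes a catenin of neurons, and PARD3, a cell polarity gene, with 18 each. These hosts are very long, and the 32 loci facing AUTS2 covered 839582 bases of it. An assembled coding locus can merge several annotated genes, which are then written with a slash. The largest overlaps by bases were MSTRG.16105 with TSHZ2 (377044 bases), MSTRG.33165 with MAML3 (337351 bases), MSTRG.7517 with RBMS3 (247290 bases), MSTRG.34950 with GLCCI1/UMAD1 (242464 bases) and MSTRG.29321 with JAK1 (222015 bases), all 5 spliced.

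Some members matched an annotated gene by position in RefSeq (Sscrofa11.1), whose table gives no strand. At a reciprocal overlap of at least 50%, 349 members (4.88%) had a match. In 172 cases the RefSeq gene bore the name of the coding locus itself, so the antisense locus ran along most of that gene. The other 177 matched another gene, of which 111 were lncRNAs, 59 were protein-coding and 6 were pseudogenes. Of those 59, 51 were spliced. MSTRG.5495 shows the kind. It lay head to head with COL4A2 with an overlap of 230 bases and matched COL4A1, the partner collagen that is known to share a bidirectional promoter with COL4A2. The lack of a transcript type in the table therefore does not mark a member as non-coding.

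Antisense loci were expressed below their coding loci in every pig. The median of the mean FPKM over pigs was 1.89 for all antisense loci and 4.39 for their coding loci. Within a pig, the median log10 FPKM of all antisense loci minus that of their coding loci, taken pair by pair, was between -0.465 and -0.356, with a mean of -0.397. Of 6799 pairs in which both loci had a mean count of at least 10, the antisense locus was the higher in 720 (10.6%). Between 468 and 493 antisense loci had no count in a given pig. The share of all counts that fell in antisense loci was 15.0, 12.2, 16.6, 15.7 and 14.7% in control 1 to control 5, and 14.2, 16.0, 16.5, 15.5 and 16.5% in rpFSH 1 to rpFSH 5. The mean was 14.8% ± 1.66 in controls and 15.8% ± 0.956 in treated pigs (SD, n = 5 per group), and the groups overlapped. Control 2 had the lowest share, and there coding loci held 74.7% of the counts.

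**Figure D2:**
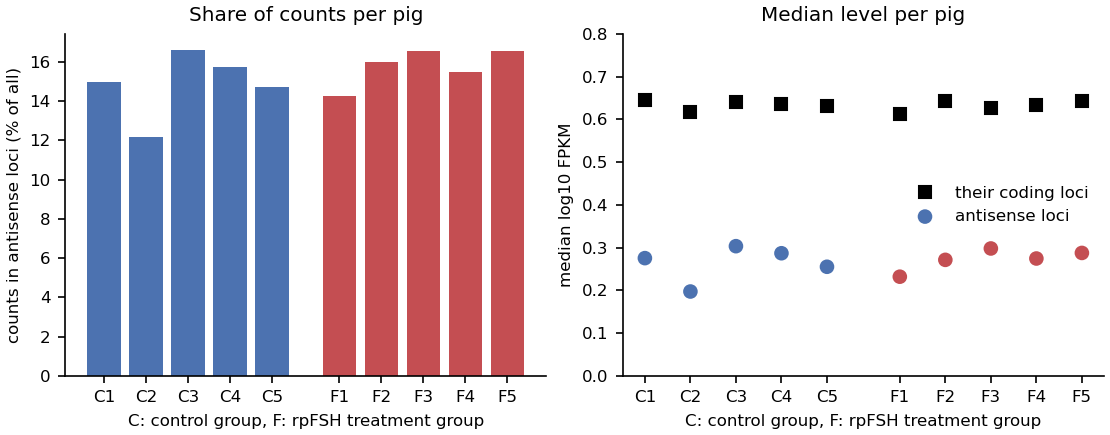
Left, percent of all counts of a pig that fell in antisense loci; right, median log10 FPKM of the antisense loci (circles) and of their coding loci (squares) in each pig, with control pigs (C1 to C5) in blue and pigs of the rpFSH treatment group (F1 to F5) in red. The antisense median is below the coding median in each of the 10 pigs, and control 2 is lowest on both panels for the antisense loci.

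The most highly expressed antisense locus was MSTRG.5495, at 98.9 ± 15.3 FPKM in controls and 114 ± 49.2 FPKM in treated pigs (SD, n = 5 per group), and its coding partner COL4A2 had means of 47.8 and 50.1 FPKM. MSTRG.7194, a spliced locus of 508 bases in UBB, a polyubiquitin gene, had a mean of 52.5 FPKM over the 10 pigs, 0.238 times that of UBB. MSTRG.20143, 273 bases long and unspliced, lies in TRRAP, which encodes a subunit of histone acetyltransferase complexes, and reached a mean of 41.9 FPKM, 5.16 times that of TRRAP. Its values were 79.5, 21.5, 66.0, 44.5 and 72.1 FPKM in control 1 to control 5, and 26.3, 8.29, 43.1, 47.7 and 10.3 in rpFSH 1 to rpFSH 5. MSTRG.22189 in AGBL5 had a mean of 20.6 FPKM and matched OST4, a subunit of oligosaccharyltransferase, and MSTRG.24778 in PRKAG1 had a mean of 17.0 FPKM. None of the 5 was called between the groups. The second head-to-head pair by level was MSTRG.13133 with the lipid phosphatase gene PLPP5 (mean of 6.72 FPKM, 3.10 times PLPP5), and the next was MSTRG.20818 with LITAF (5.92 FPKM).

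In a few pairs the antisense locus was the expressed one. MSTRG.12210 spanned PAX2, a transcription factor gene of the urogenital tract, and had 0.914, 0.849, 1.03, 0.727 and 3.34 FPKM in the controls and 1.73, 2.64, 1.23, 0.958 and 0.966 in treated pigs. PAX2 itself was listed at the floor of the table, 0.0001 FPKM, in 8 of the 10 pigs. MSTRG.36032, MSTRG.27965, MSTRG.27964 and MSTRG.36910 had means of 2.46, 2.47, 2.44 and 1.14 FPKM, between 27.1 and 85.3 times those of their coding loci, which have no gene symbol.

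The response to rpFSH was tested by edgeR over all loci of the table with a mean count of at least 10. A locus was called when the unadjusted P was under 0.05 and the log2 fold change above 1 or below -1. The study used the same limits, but on the FPKM of transcripts with Ballgown, so its calls and these are not alike in measure. Of 6808 antisense loci tested, 209 were called (3.07%), against 3.51% of all loci tested. Of them 114 were higher in treated pigs (1.67%, against 1.1% of all loci) and 95 were lower (1.40%, against 2.41%). An unadjusted P under 0.05 was reached by 446 (6.55%, against 5.75%). No antisense locus passed an adjusted p of 0.05 in edgeR, where the smallest was 0.843, and 43 passed it in DESeq2, which called 173. The median log2 fold change was 0.07 over the antisense loci, -0.05 over coding loci and -0.00 over all loci, and 61.4% of the antisense loci had an estimate above 0. Unannotated loci on the strand of a coding locus were close to this, with a median of 0.05, 58.8% above 0, and 51 called higher and 49 lower. Those without a strand had a median of 0.03, 53.0% above 0, and 36 called higher and 84 lower. Among coding loci 59 were called higher and 419 lower. Without control 2 and control 5 the antisense calls were 113 higher and 78 lower. Lower calls were the more frequent without control 1 (77 higher and 92 lower) and without control 4 (93 higher and 104 lower).

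**Figure D3:**
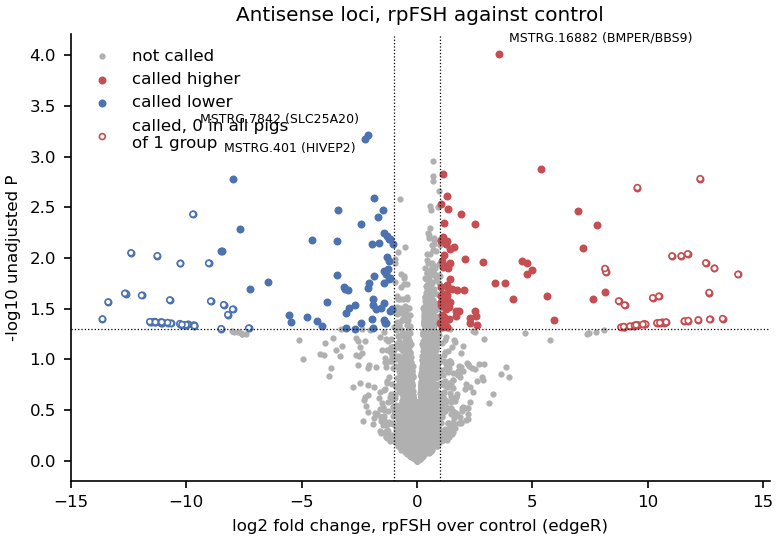
Each point is 1 of the 6808 antisense loci tested, by log2 fold change (rpFSH over control, edgeR) and -log10 of the unadjusted P; dotted lines mark the limits of the call, and open circles are called loci with no count in any pig of 1 group, whose fitted fold change has no meaning as a size. The 114 loci called higher and the 95 called lower lie outside the vertical lines, with MSTRG.16882 at the smallest P.

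Many calls fell on loci with a count of 0 in some pig. Of the 209 called loci 99 had such a count, against 484 of the 6808 tested (7.11%). Of those 484, 20.5% were called. Of 41 tested loci without a count in any control, 36 were called. Of 42 without one in any pig of the rpFSH treatment group, 34 were called. A locus without a count in 1 whole group reached the mean count of at least 10 only through the other group. Its call was largely settled by how it entered the test and is no support for a response. This holds for MSTRG.12382, MSTRG.17600 and every other locus below that had no count in 1 group. Unannotated loci on the strand of a coding locus had a 0 in 54 of 100 called and in 8.47% of tested loci. Those without a strand had it in 41 of 120 and in 7.77%. Among the 6324 tested antisense loci with a count above 0 in every pig, 110 were called (1.74%), 66 higher and 44 lower. The groups did not overlap in 10 called loci (0.147% of those tested), against 0.308% of all loci that were called and did not overlap. Without regard to the call, the groups did not overlap in 53 antisense loci (0.778%), against 0.731% of all loci. The coding locus was tested for 207 of the called loci, and its estimate had the same direction in 142 (68.6%), against 66.3% of all tested antisense pairs. It was itself called in 31 cases (15.0%), each in the same direction, against 1.01% of all tested antisense pairs and 3.11% of coding loci. Called loci that share a host count the same coding locus more than once.

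Among the loci called higher, MSTRG.16882 had the smallest P. It is a spliced locus at chr18:39389713-39440954 on the + strand, tail to tail with BMPER/BBS9 over 23118 bases, and it matched a RefSeq lncRNA, LOC102163798. BMPER encodes a secreted regulator of bone morphogenetic protein signals and BBS9 a subunit of a complex that carries cargo to cilia. Its values were 0.154, 0.0955, 0.180, 0.198 and 0.302 FPKM in control 1 to control 5, and 3.09, 1.65, 0.313, 2.02 and 3.62 in rpFSH 1 to rpFSH 5. Every treated pig was above every control, although rpFSH 3 was only just so. The log2 fold change was 3.57 ± 0.58 (SE, edgeR P = 9.72e-05), and an exact permutation test gave p = 0.00794, the smallest that 5 against 5 pigs allow. The coding locus BMPER/BBS9 itself did not pass the test (log2 fold change of -0.35, edgeR P = 0.133, exact permutation p = 0.167).

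MSTRG.11985 lay tail to tail with BTAF1, a regulator of TATA-binding protein, and had 0.659, 0.684, 0.890, 1.04 and 0.786 FPKM in the controls and 1.51, 1.19, 1.56, 1.35 and 3.07 in treated pigs. The groups did not overlap, and the log2 fold change was 1.13 ± 0.26 (SE, edgeR P = 0.00149, exact permutation p = 0.00794), but without rpFSH 5 it fell to 0.83 and was no longer called. MSTRG.18463 in OLFM2, an olfactomedin gene, had 0.618 to 1.04 FPKM in the controls and 1.13 to 2.51 in treated pigs, without overlap, and a log2 fold change of 1.02 ± 0.26 (edgeR P = 0.00295, exact permutation p = 0.00794). That call was lost without control 1, control 3, control 4, rpFSH 1 or rpFSH 4, where the estimate was between 0.81 and 1.13 over all pigs left out in turn. MSTRG.7078, which faces a pair of genes without a symbol, had a median of 1.24 FPKM in the controls and 3.26 in treated pigs, with overlap, and a log2 fold change of 1.30 ± 0.33 (edgeR P = 0.00243, exact permutation p = 0.0238). MSTRG.12382 lies in TCF7L2, a transcription factor of the WNT pathway. It had no count in any control nor in rpFSH 4, whereas rpFSH 1, 2, 3 and 5 had 482, 747, 927 and 879 counts. Against a floor of 3 counts per library, the mean of the rpFSH treatment group was at least 206-fold higher.

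Among the loci called lower, MSTRG.7842 was the only one of the first 5 whose groups did not overlap. It is a spliced locus at chr13:31563187-31565446 on the + strand inside SLC25A20, which encodes the carnitine carrier of mitochondria. Its values were 2.89, 2.44, 2.59, 1.83 and 1.97 FPKM in control 1 to control 5, and 0.448, 0.281, 0.164, 1.00 and 0.723 in rpFSH 1 to rpFSH 5. It fell by 2.13 ± 0.44 on the log2 scale (SE, edgeR P = 0.000614, exact permutation p = 0.00794), while the estimate for SLC25A20 was -0.17 (edgeR P = 0.504).

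MSTRG.401 is an unspliced locus of 39367 bases in HIVEP2, a zinc finger transcription factor gene, and went against the estimate of its host. It had 2.82, 3.69, 0.555, 1.51 and 3.90 FPKM in the controls and 0.419, 0.357, 0.574, 0.589 and 0.654 in treated pigs, so that only control 3 lay within the treated range. It fell by 2.26 ± 0.47 on the log2 scale (edgeR P = 0.000677, exact permutation p = 0.0317), and HIVEP2 had a log2 fold change of 0.90 (edgeR P = 0.0183, exact permutation p = 0.0714), short of the limit for a call. MSTRG.23045 in ZNF704 had a mean of 1.26 FPKM in the controls and 0.338 in treated pigs, with overlap, and fell by 1.86 ± 0.47 (edgeR P = 0.00257, exact permutation p = 0.0159). MSTRG.24215 in RWDD3 had between 1.86 and 2.97 FPKM in 4 controls, was listed at the floor in control 4 and in 4 treated pigs, and had 0.0331 FPKM in rpFSH 2. MSTRG.17600 in TMX2/SELENOH had no count in any treated pig nor in control 4, and between 2.00 and 13.0 FPKM in the other controls, so that its control mean was at least 33.3-fold higher than the floor.

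The 209 called loci were spread over 169 coding loci. A few of these coding loci held several called loci each, and they were picked out after their values had been seen. At KCNMA1, which encodes the large-conductance calcium-activated potassium channel, 11 of 13 antisense loci were called higher, against 1.1% of all loci. Their log2 fold changes were between 1.18 and 2.29 and their edgeR P between 0.00687 and 0.0482. Of the 13, 10 were unspliced. Among the called loci MSTRG.11702 had the most counts. It had 1.51, 0.532, 1.76, 1.74 and 3.98 FPKM in the controls and 3.27, 2.45, 7.20, 3.95 and 5.80 in treated pigs. Control 5 lay within the treated range and the other controls were below it. KCNMA1 itself had 1.72, 0.484, 1.41, 1.44 and 6.0 FPKM in the controls and 4.42, 3.74, 9.20, 2.86 and 6.21 in treated pigs, with a log2 fold change of 1.30 ± 0.59 (edgeR P = 0.0503, exact permutation p = 0.0317). Among the controls, KCNMA1 was lowest in control 2 and highest in control 5. The sum of smooth muscle markers had the same extremes (72.5 and 2214 FPKM), and its part here was not tested. The antisense loci of 1 host share their source and are not independent. Without rpFSH 3 only 3 of the 13 were called, and without control 2 and control 5 together 11 were.

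At ANO4, a gene of the anoctamin family of membrane proteins, 6 of 8 antisense loci, all unspliced, were called higher, against 1.1% of all loci. They differed by 1.03 to 1.35 on the log2 scale. MSTRG.25969 had 1.96, 1.52, 4.71, 3.06 and 1.13 FPKM in the controls and 2.58, 3.47, 7.89, 4.74 and 5.99 in treated pigs, so the groups overlapped. ANO4 had a log2 fold change of 0.81 (edgeR P = 0.0799, exact permutation p = 0.135). Only 1 of the 8 was called without rpFSH 3, 2 without control 5 and 1 without control 2 and control 5 together.

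At NPSR1, the receptor of neuropeptide S, 6 of 7 antisense loci were called higher, against 1.1% of all loci. Their log2 fold changes were between 1.45 and 3.82. NPSR1 itself was called higher with 2.69 ± 0.76 (edgeR P = 0.00507, exact permutation p = 0.0159). NPSR1 had 0.177, 0.199, 0.156, 0.214 and 0.752 FPKM in the controls and 1.76, 0.860, 0.248, 1.55 and 5.13 in treated pigs. MSTRG.16871, for which primers are given above, had 0.294, 0.525, 0.187, 0.347 and 1.49 FPKM in the controls and 2.20, 1.12, 0.451, 1.55 and 6.21 in treated pigs. rpFSH 5 was highest and rpFSH 3 lay among the controls. Its log2 fold change was 2.04 ± 0.75 (edgeR P = 0.0209), and the exact permutation test gave p = 0.0556. Without rpFSH 5 only 3 of the 7 loci were called. The other primer target, MSTRG.34178 in TMEM135, had means of 1.34 ± 0.213 FPKM in controls and 1.55 ± 0.419 FPKM in treated pigs (SD, n = 5 per group) and was not called (edgeR P = 0.312, exact permutation p = 0.421). The study picked a transcript of each primer target from its differentially expressed lncRNAs. It reported that fold changes by qRT-PCR matched those of its sequencing, whereas the values here are of whole loci.

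NPSR1 and MSTRG.16882 belong to 1 stretch of chromosome 18, which was also noticed after the values had been seen. Between the start of DPY19L1 at base 38800720 and the end of BMPER/BBS9 at base 40394356, 17 loci were tested. All 14 unannotated loci among them had an estimate above 0, as had 61.4% of all tested antisense loci. Of the 14, 11 were called higher, against 1.1% of all loci, including 7 of 8 antisense loci. Neighbouring loci may share their source and are not independent. Without rpFSH 5 only 3 of the 7 antisense loci of NPSR1 were called. In the 174885 bases between NPSR1 and MSTRG.16882, which hold no coding locus, MSTRG.16880 had a log2 fold change of 4.17 (edgeR P = 0.00113, exact permutation p = 0.0238) and MSTRG.16881 one of 7.16 (edgeR P = 7.68e-05, exact permutation p = 0.00794). The flanking coding loci did not pass the test, DPY19L1 with -0.30 (edgeR P = 0.242, exact permutation p = 0.159) and BMPER/BBS9 as above.

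Loci called lower gathered at DNAH9, which encodes a heavy chain of the outer dynein arm of motile cilia. All 5 tested loci of the 6 facing DNAH9 were called lower, against 2.41% of all loci, by 1.42 to 1.90 on the log2 scale. They share 1 host and are not independent. MSTRG.7118 had 0.446, 1.42, 0.387, 0.456 and 1.80 FPKM in the controls and 0.207, 0.219, 0.369, 0.527 and 0.346 in treated pigs. DNAH9 fell with them, by 1.67 ± 0.52 (edgeR P = 0.00914, exact permutation p = 0.0317). Control 2 and control 5, the libraries with the highest ciliated markers, were highest for both, and without this pair 1 of the DNAH9 loci was called. In such bulk tissue, fewer cells of a type and less RNA per cell cannot be told apart. Of the coding loci with at least 3 loci called lower, the other two each lost all calls without 1 library. At MFSD4B, 3 of 4 loci were called and none without control 2, where MSTRG.937 had 7.51 FPKM against 0.0621 to 0.282 in the other pigs. At DMBT1 the 3 called loci had no count in any treated pig, and none was called without control 5, which held 188 counts of MSTRG.12491 against 9 in control 2 and 0 in the other pigs.

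The balance between the strands was tested as the log2 ratio of the CPM (counts scaled to the library total) of the antisense locus to that of the coding locus, with limma over all 13941 overlapping pairs of an unannotated and a coding locus. Of 6799 antisense pairs 83 were called (1.22%), against 1.55% of all pairs. The ratio was higher in treated pigs in 52 (0.765%, against 1.02%) and lower in 31 (0.456%, against 0.531%). No pair passed an adjusted p of 0.05 in limma, where the smallest was 0.523, and 309 had an unadjusted P under 0.05. Without control 2 and control 5 there were 53 higher and 54 lower, so the excess of higher ratios was not kept.

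The pairs with the smallest P included both loci described above. For MSTRG.16882 and BMPER/BBS9 the mean log2 ratio was -3.74 ± 0.37 in controls and -0.17 ± 1.66 in treated pigs (SD, n = 5 per group, limma P = 0.000322, exact permutation p = 0.00794). For MSTRG.7842 and SLC25A20 it was -2.98 ± 0.42 and -5.07 ± 0.89 (limma P = 0.000375, exact permutation p = 0.00794). MSTRG.21506 is 1 of the 18 loci in CTNNA2 and its ratio fell by 2.01 (limma P = 0.000296, exact permutation p = 0.00794), the antisense locus having 1.32 to 4.86 FPKM in the controls and 0.119 to 1.89 in treated pigs. MSTRG.1222 in TXNL1, a thioredoxin-like gene, had 1.42, 1.58, 1.22, 1.21 and 0.836 FPKM in the controls and 2.72, 2.16, 2.11, 2.30 and 2.20 in treated pigs, without overlap. Its ratio differed by 0.98 (limma P = 0.000148, exact permutation p = 0.00794), just inside the limit of 1. For MSTRG.24025 and KCND3, a potassium channel gene, neither locus passed the test alone, but their ratio was higher in treated pigs by 0.91 (limma P = 0.00017, exact permutation p = 0.00794), also short of a call.

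Antisense and coding loci mostly varied together from pig to pig. Over 10 pigs the median Pearson r of log2(CPM + 0.1) was 0.569 in 6799 pairs, with quartiles of 0.201 and 0.810, and the median Spearman rho was 0.527. The r was above 0 in 84.7% of the pairs. An adjusted permutation p under 0.05 with r above 0 was found in 2280 pairs (33.5%), against 29.5% of all overlapping pairs, and with r below 0 in 28 (0.412%), against 0.308%. Both Pearson and Spearman tests passed for 1442 pairs. With values centred on their group means the median r was 0.579, and without the 2 pigs farthest from the median of the coding locus it was 0.448. Without control 2 and control 5, so over 8 pigs, the number of positive pairs was 1233. The median r was 0.581 inside coding loci, 0.428 in head-to-head pairs, 0.404 in spanning pairs and 0.259 in tail-to-tail pairs. It was 0.505 for unannotated loci on the strand of the coding locus and 0.458 for those without a strand. Antisense loci of 1 host also varied together: over 1395 coding loci with at least 2 well-counted antisense loci, the median r between them was 0.578 and was above 0 in 1281.

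**Figure D4:**
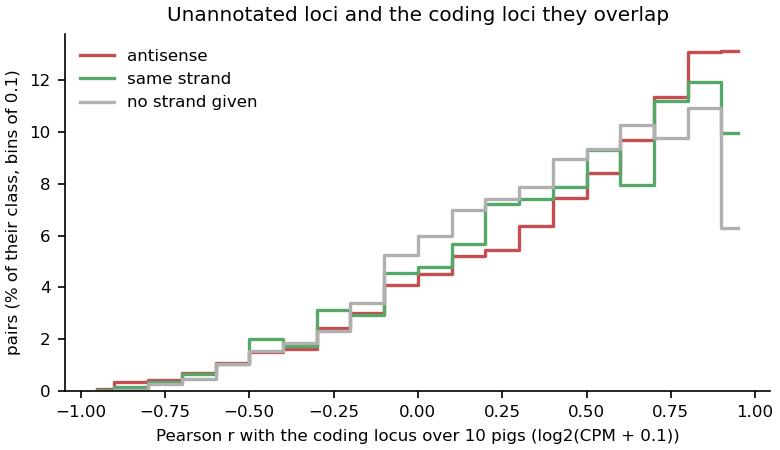
Percent of pairs by Pearson r between an unannotated locus and its coding locus over 10 pigs (log2(CPM + 0.1), bins of 0.1), for antisense loci, loci on the same strand and loci without a strand. The 3 curves are high at high r, with medians of 0.569, 0.505 and 0.458. From r of 0.8 to 0.9 to the last bin, the antisense curve stays at 13.1%. The same-strand curve falls from 12.0 to 9.96% and that without a strand from 10.9 to 6.29%.

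The tightest pairs followed the host over its whole range. MSTRG.21498 in CTNNA2 had 5.2, 1.30, 5.45, 3.89 and 3.85 FPKM in the controls and 6.24, 5.07, 1.09, 1.06 and 2.96 in treated pigs, and CTNNA2 had 5.29, 1.32, 5.28, 3.75 and 3.89, and 6.05, 4.43, 0.973, 1.03 and 3.13. The level was nearly the same on both strands in every pig (r = 0.997, rho = 0.976, permutation p = 1e-05 and 3e-05, the first being the smallest that 100000 permutations allow, adjusted p = 0.00073 and 0.00295, r = 0.994 without 2 pigs). MSTRG.21493, also in CTNNA2, MSTRG.8578 in TMEM108, MSTRG.22856 in SNX31, a sorting nexin, and MSTRG.4187 in C9orf72/MOB3B had r between 0.993 and 0.997 and adjusted permutation p of 0.00073, with 0.946, 0.672 and 0.539 times the mean FPKM of their hosts for the last 3. None of these 5 loci was called between the groups.

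The lowest r came from pairs in which pigs fell into separate sets, so that no pooled r is given. MSTRG.29945 lay tail to tail with MCUR1, which encodes a regulator of mitochondrial calcium uptake. It had 4.46, 5.29, 3.87 and 2.92 FPKM in control 1 to control 4 and 2.50, 4.01 and 3.80 in rpFSH 2 to rpFSH 4, and between 0.00894 and 0.0115 in control 5, rpFSH 1 and rpFSH 5. MCUR1 had 6.34, 4.13 and 3.48 FPKM in those last 3 pigs and between 0.382 and 0.917 in the other 7. MSTRG.25348 runs along most of MED21, a Mediator subunit, and was listed at the floor in control 2, rpFSH 1 and rpFSH 2, where MED21 had 2.10, 1.77 and 2.47 FPKM, against 0.572 to 0.939 in the other 7 pigs. MSTRG.32639 in CHIC2 was above the floor only in rpFSH 1 and rpFSH 2, with 1.5 and 1.68 FPKM, and CHIC2 was lowest in these same pigs with 1.70 and 1.92 FPKM against 2.97 to 3.82. MSTRG.14988 lay head to head with PWWP2A and was above the floor in control 1, control 2 and rpFSH 3, and PWWP2A was lowest in these pigs. MSTRG.3107 in KIAA1958 was above the floor in control 5 alone, where KIAA1958 was lowest with 1.05 FPKM.

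**Figure D5:**
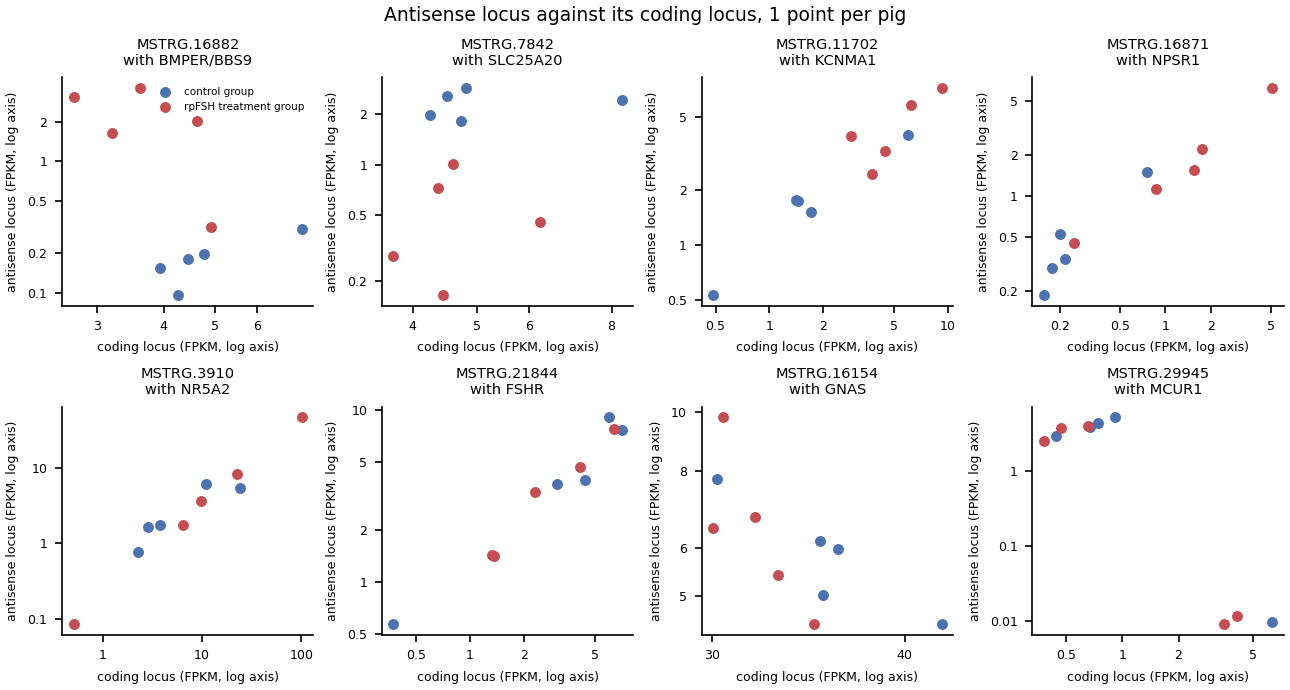
FPKM of an antisense locus against that of its coding locus on log axes, 1 point per pig, control group in blue and rpFSH treatment group in red, for 8 pairs named in the text. The points of KCNMA1, NPSR1, NR5A2 and FSHR rise together, those of GNAS fall, those of BMPER/BBS9 and SLC25A20 separate by group along the antisense axis, and those of MCUR1 form 2 sets.

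Genes of ovarian function were looked at by fixed lists. The calls of each list stand beside the 3.51% called among all loci tested. Of 23 genes of steroid hormone synthesis in the table, 8 had antisense loci, 21 in all, and 0 of 20 tested were called. The median log2 fold change of the 20 was 0.64, against -0.00 over all loci, and without control 2 and control 5 it was 1.91 with 1 call. The median r with the coding locus was 0.982, against 0.569 over all antisense pairs. Of the 21 loci, 8 share the host NR5A2 and are not independent, so these medians lean on 1 host. NR5A2, a nuclear receptor that drives steroidogenic genes and is needed for ovulation, had 8 antisense loci. The highest, MSTRG.3910, had 1.64, 5.43, 1.74, 6.08 and 0.776 FPKM in the controls and 46.5, 8.24, 0.0844, 3.58 and 1.74 in treated pigs. NR5A2 had 2.86, 23.9, 3.75, 10.9 and 2.24 FPKM, and 102, 22.5, 0.507, 9.69 and 6.38. rpFSH 1 was highest and rpFSH 3 lowest on both strands (r = 0.979, rho = 0.964, permutation p = 2e-05 and 6e-05, adjusted p = 0.000923 and 0.00373, r = 0.932 without 2 pigs), and the r of the 8 loci was between 0.979 and 0.992. Neither MSTRG.3910 (log2 fold change of 2.00, edgeR P = 0.132, exact permutation p = 0.778) nor NR5A2 (1.71, edgeR P = 0.17, exact permutation p = 0.627) passed the test. By qRT-PCR, the study reported significantly higher NR5A2 mRNA in the rpFSH treatment group. It also counted NR5A2 among its differentially expressed coding genes and proposed that the lncRNA MSTRG.3902.1 might regulate it. The locus MSTRG.3902 lies on the strand of a coding locus and is not one of the antisense loci.

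MSTRG.31093 in CYP11A1, the side-chain cleavage enzyme that makes pregnenolone, had 2.16, 31.1, 2.46, 0.510 and 0.639 FPKM in the controls and 28.2, 1.12, 0.886, 6.69 and 2.20 in treated pigs. CYP11A1 itself was highest in the same 2 pigs, with 1758 FPKM in control 2 and 787 in rpFSH 1, and the antisense mean was 0.0268 times that of CYP11A1 (r = 0.989, rho = 0.976, permutation p = 1e-05 and 3e-05, adjusted p = 0.00073 and 0.00295, r = 0.968 without 2 pigs). MSTRG.10613 in SCARB1, the HDL receptor that takes up cholesterol, had 39.8 FPKM in control 2 and 39.3 in rpFSH 1, and between 1.95 and 10.9 in the other pigs. MSTRG.34373 in FDX1, the ferredoxin of mitochondrial P450 enzymes, was again highest in this pair, with 20.7 and 27.6 FPKM. MSTRG.1459 in CYP19A1, the aromatase gene, had another order, with 3.53 FPKM in control 4 and 3.51 in rpFSH 2 as its highest values and 0.0672 in control 2 as its lowest, and CYP19A1 had 5.42, 5.56 and 0.110 FPKM in these pigs. Control 2 also had the highest sum of theca and luteal markers, a list that includes CYP11A1 and SCARB1, and the part of this in these values was not tested.

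A list of 15 receptor genes held gonadotropin, prolactin and steroid receptors, and also GHR, IGF1R and INSR, which are none of these. Of the 15 genes, 9 had antisense loci, 45 in all, of which 41 were tested and 1 was called. The call was MSTRG.1773 in IGF1R, which had 1003 counts in rpFSH 2 and none in any other pig. MSTRG.21844 in FSHR, the receptor for the hormone given, had 7.63, 0.568, 9.05, 3.91 and 3.70 FPKM in the controls and 3.31, 7.69, 1.44, 1.42 and 4.66 in treated pigs. FSHR had 7.02, 0.375, 5.97, 4.36 and 3.05 FPKM, and 2.29, 6.36, 1.33, 1.36 and 4.13. Both were lowest in control 2 (r = 0.982, rho = 0.927, permutation p = 2e-05 and 0.00043, adjusted p = 0.000923 and 0.00831, r = 0.959 without 2 pigs), and neither passed the test between groups (edgeR P = 0.602 and 0.6, exact permutation p = 0.833 and 0.881). Control 2 also had the lowest sum of granulosa cell markers, a list that includes FSHR and CYP19A1. That sum was 14.2 FPKM, against a control median of 53.3, and its part in these values was not tested. MSTRG.18615 in INSR, the insulin receptor, had a mean of 6.13 FPKM, and MSTRG.1771 and MSTRG.1772 in IGF1R had 4.77 and 4.76. None of these 3 was called, and IGF1R had a log2 fold change of -0.66 (edgeR P = 0.0214, exact permutation p = 0.0476).

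Follicle growth factors and their receptors had antisense loci at 12 of 30 genes, with 42 loci, of which 37 were tested. The only call was MSTRG.13806 in BMPR2, a type II receptor of bone morphogenetic proteins. It had 0.395, 0.154, 1.98, 0.211 and 2.11 FPKM in the controls and 0.133, 0.154, 0.339, 0.166 and 0.303 in treated pigs, so that control 3 and control 5 carried the difference (log2 fold change of -2.10 ± 0.74, edgeR P = 0.0177, exact permutation p = 0.151). BMPR2 was between 12.4 and 18.3 FPKM in all pigs. MSTRG.24288 in TGFBR3, the betaglycan that also binds inhibin, had a mean of 9.48 FPKM, MSTRG.17104 in GLI3/INHBA 4.33, MSTRG.11796 in BMPR1A 3.53 and MSTRG.7476 in TGFBR2 3.52, and none was called. Gonad and urogenital transcription factor genes had 56 loci at 17 of 39 genes, with 0 of 49 called. Among them MSTRG.16103 in TSHZ2 had a mean of 10.4 FPKM and MSTRG.17882 in WT1, a gene of the developing gonad, 8.23 FPKM, 2.41 times that of WT1. No antisense locus faced any of the 14 oocyte genes in the table.

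Motile cilium genes had antisense loci at 7 of 45 genes, 15 in all, and 6 of 14 tested were called lower, against 2.41% of all loci, with a median log2 fold change of -1.57, against -0.00 over all loci. Of the 6, 5 share 1 host. Of the coding loci of this list 37 of 45 were called lower. The 6 were the 5 loci of DNAH9 and MSTRG.10116 in RSPH1, a radial spoke protein gene, which had 126 counts in control 2 and 576 in control 5, and at most 12 in any other pig. Of 4 loci in RFX3, a transcription factor of ciliogenesis, 3 had estimates between -0.52 and -0.48 and MSTRG.2636 had 1.39, and none was called. Without control 2 and control 5, 1 of 11 tested loci was called and the median was -0.37.

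Antisense partners known from textbooks were looked for by their host genes. Of 32 such genes 10 had antisense loci, 17 in all, and 1 of 16 tested was called, MSTRG.12752 in ZEB2, which had 7670 counts in control 1 and none in any other pig. MSTRG.16154 in GNAS, the imprinted gene of the stimulatory G protein alpha subunit that couples gonadotropin receptors to cyclic AMP, had 5.98, 4.50, 6.16, 7.77 and 5.02 FPKM in the controls and 4.49, 5.41, 9.81, 6.47 and 6.72 in treated pigs. It tended to be high in pigs where GNAS was low, GNAS having 42.3 FPKM in control 2 and 30.0 to 30.5 in rpFSH 3, rpFSH 4 and control 4. The Pearson test passed (r = -0.777, permutation p = 0.00865, adjusted p = 0.0341, r = -0.811 without 2 pigs) and the Spearman test did not after adjustment (rho = -0.758, permutation p = 0.0152, adjusted p = 0.066). MSTRG.8209 in ADAMTS9 had a mean of 7.61 FPKM and MSTRG.4277 in ZEB1 4.98 FPKM. The HOX clusters, which hold many antisense RNAs in other tissues, had 1 locus, MSTRG.13562 with HOXD3/HOXD4, at 0.770 FPKM and not called.

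WNT pathway genes had 32 loci at 12 of 37 genes, and 2 of 28 tested were called, against 3.51% of all loci. Both were called higher, as were 1.1% of all loci. They were MSTRG.12382 in TCF7L2, described above, and MSTRG.16734 in WNT2, a WNT ligand. MSTRG.16734 had 0.529, 0.246, 0.795, 0.515 and 0.678 FPKM in the controls and 0.855, 0.412, 1.94, 0.850 and 1.83 in treated pigs, with overlap (log2 fold change of 1.12 ± 0.43, edgeR P = 0.026, exact permutation p = 0.0873). WNT2 had an estimate of 0.93 (edgeR P = 0.0691, exact permutation p = 0.143). TCF7L2 also had MSTRG.12370, MSTRG.12373 and MSTRG.12372 at 5.07, 4.74 and 3.95 FPKM, none of them called. Extracellular matrix genes had 25 loci at 14 of 32 genes, circadian clock genes 15 at 7 of 21, and cell cycle genes 16 at 8 of 30. None of the 23, 15 and 16 tested was called, too few to tell from the 3.51% of all loci. Without control 2 and control 5, WNT genes held 1 call, gonad transcription factors 1 and cell cycle genes 1.

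Among other genes named in the study, DOCK4, a guanine nucleotide exchange factor, had 7 antisense loci with means between 1.76 and 6.69 FPKM, none called. PHF21A, a subunit of a histone deacetylase complex, had 4, of which MSTRG.17680 was called higher: it had no count in any control, and 3.03, 2.24 and 0.265 FPKM in rpFSH 3, 4 and 5. SCP2, the sterol carrier protein, had 4, and MSTRG.29550 was called lower on the strength of control 2, with 12.6 FPKM against at most 0.602 in any other pig (log2 fold change of -2.97, edgeR P = 0.0315, exact permutation p = 0.651). SCP2 had 51.5 FPKM in control 2 and at most 4.08 elsewhere. ENSSSCG00000033862 had 3, and MSTRG.23822 and MSTRG.23828 were called higher with 20.8 and 15.4 FPKM in rpFSH 1 and at most 2.15 and 1.16 in the other pigs. These values followed the host, which had 14.9 FPKM in rpFSH 1 and at most 0.908 in the others.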

How the data were processed

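The authors removed adaptors and low-quality bases, mapped the reads to the pig genome (Sscrofa11.1 per the labels), assembled them with StringTie 1.3.0 and estimated FPKM. HISAT2 2.0 and Bowtie 0.12.2 are named in the submitters' processing notes. The deposited table gives FPKM and a whole-number count per locus and pig. How the authors made the counts, and whether by strand, is not given in the sources used here. The methods describe rRNA removal and dUTP libraries on a HiSeq instrument, whereas the labels give a NovaSeq and enrichment by poly(A).

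Groups were compared on the counts with edgeR 4.0.16 (quasi-likelihood, TMM) over all 35720 loci with a mean count of at least 10, with Benjamini-Hochberg adjustment across them. The ratio was tested with limma 3.58.1 on log2 with 0.1 CPM added. Correlations used 100000 permutations. Both ran over all 13941 overlapping pairs. DESeq2 1.42.0 was an alternative. R 4.3.3, Python 3.11.15, numpy 2.4.6, pandas 2.3.3 and scipy 1.17.1 were used, and the calculations were tested on simulated data. Exact permutation tests are two-sided over all assignments of pigs to groups. The floor of 3 counts, 0.0399 to 0.0462 CPM, covers counting error only. RefSeq genes were matched by position, as 99.9% of 12540 coding loci overlapped the RefSeq gene of their symbol.

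Named loci have a mean count of at least 50 and are the 5 called with the smallest P in each direction, the 5 highest in FPKM, in ratio to the coding locus and in overlap, the 5 ratio tests with the smallest P, the 5 highest and 5 lowest group-centred r, the 3 highest head-to-head loci, up to 4 per gene list, and those of genes the study names. Hosts with several calls, and called loci of the lists, were added after their values were seen. The loci so added need not reach that count, and MSTRG.12491 had a mean of 19.7. The members and lists were chosen with earlier results of these data known. Replicate numbers come from the labels and did not pair the pigs: same-numbered pigs correlated in their deviations with r between -0.177 and 0.0788.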

Additional observations from a re-analysis of the deposited data

Results flagged for a closer look

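In groups of 5 pigs, a value was taken as far from the others when its gap to the nearest pig was over 0.71 of the range of the group. Chance gives this in about 1 in 20 groups of normally distributed values, which FPKM need not be. The check covered 96 groups, only a part of those of the 120 named loci, and 17 had such a value. MSTRG.10613, MSTRG.937, MSTRG.1773 and MSTRG.12752 are not among the 17, although the values given above for them also stand apart.

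Most of them repeat 2 libraries. rpFSH 1 stood above the rest of its group at 5 loci of NR5A2, with 46.5 FPKM at MSTRG.3910, 25.5 at MSTRG.3912, 21.2 at MSTRG.3907, 15.1 at MSTRG.3913 and 12.9 at MSTRG.3914. It also did so at MSTRG.31093 in CYP11A1 (28.2 FPKM), at MSTRG.23822 and MSTRG.23828 with ENSSSCG00000033862 (20.8 and 15.4 FPKM) and at MSTRG.22189 in AGBL5 (30.2 FPKM). Control 2 stood above the other controls at MSTRG.31093 (31.1 FPKM) and at MSTRG.29550, MSTRG.29547 and MSTRG.29548 in SCP2 (12.6, 6.15 and 3.33 FPKM). The loci of 1 host share their source, so these are fewer than 13 independent values.

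Single values stood apart at MSTRG.16871 in NPSR1 (1.49 FPKM in control 5), at MSTRG.11985 with BTAF1 (3.07 FPKM in rpFSH 5), at MSTRG.23045 in ZNF704 (0.678 FPKM in rpFSH 3) and at MSTRG.24215 in RWDD3 (0.0331 FPKM in rpFSH 2, where the other 4 were listed at the floor).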

How the results depend on the processing

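The 209 calls depended most on the scale and on loci with zeros. They came to 27 with limma on log2(FPKM + 1) and to 108 on log2(FPKM + 0.1). Restriction to loci with a count above 0 in every pig, chosen after seeing the data, left 110 called loci and 48 of the 83 called ratios, and restriction to spliced loci, also chosen after seeing the data, left 72. Another normalization, no filter, other filters, DESeq2, at least 50% of the locus inside the coding locus and leaving out control 2 and control 5 gave between 163 and 241. With each pig left out in turn the calls were 169 to 206, the called ratios 75 to 98 and the correlations that passed, of either sign, 1715 to 2072 against 2308 over all pigs. Without control 2 and control 5, 1240 correlations passed over 8 pigs. The replicate number as a replicate block gave 177 calls, 142 of them among the 209, and 100 called ratios. Of the loci named for their P, only the call of MSTRG.18463 was lost under the block. Values above the floor alone moved the median log10 difference between strands to -0.365, and leaving out each pig gave -0.401 to -0.389. Antisense loci held 60.8% of the counts of unannotated loci, and their share of all counts was 15.2 to 15.6% with each pig left out. The balance of higher and lower calls turned from 114 and 95 to 77 and 92 without control 1, 93 and 104 without control 4, 13 and 14 on log2(FPKM + 1), and 34 and 38 in spliced loci, and that of the ratios from 52 and 31 to 53 and 54 without control 2 and control 5, and the cause was not tested. The loci and ratios named for their P, the median difference in level and the median r kept their sign under the alternatives run for each. A restriction to loci of at least 2 exons by exon counts was not run. No antisense locus passed the adjustment in edgeR over all pigs, 2 did without control 2 and control 5, and at most 1 did with any single pig left out. Fold changes of loci with zeros rest on few pigs, and levels near 3 counts in a library cannot be told from 0.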
